A study of Mus musculus with 2 samples.

Results

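The 8 genes described here encode the D and E cyclins and the kinases they bind, which take cells from G1 into S phase. They were chosen by name, Ccnd1, Ccnd2, Ccnd3, Ccne1, Ccne2, Cdk2, Cdk4 and Cdk6, and all 8 were found among 23988 genes of the table. The samples were 2 RNA-seq libraries of untransformed myeloid progenitors (MP) of the mouse strain C57BL/6, here replicate 1 and replicate 2. The cells were lineage-depleted bone marrow (Lin-) that had spent 7 days in culture with IL3, SCF and IL6, and no other treatment was given. The series as a whole concerns HOXA9/MEIS1 leukemia cells, which were not analysed here. With a single group, the question was which G1 cyclins and kinases these untransformed cells expressed, and how far the libraries matched in them.

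In the textbook account, mitogens and cytokines act on the D cyclins first. Cyclins D1, D2 and D3 are encoded by separate genes and bind CDK4 or CDK6, and these complexes begin to phosphorylate the retinoblastoma protein. E2F factors are then released and switch on genes of S phase, among them those of the E cyclins, whose partner CDK2 completes the phosphorylation of the retinoblastoma protein and helps start DNA replication. Which D cyclin is used differs between cell types, and haematopoietic cells are known for their use of cyclins D2 and D3.

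Values are RPKM, reads divided by gene length and library size, which lets levels of different genes be set side by side. The gene lengths behind them are not stated, and a comparison between genes rests on them. The summed RPKM of the libraries differed little, at 613232 in replicate 1 and 615584 in replicate 2. The steps between low values put the effective library size of replicate 2 at 0.962 times that of replicate 1. Markers of myeloid progenitors were present, led by Mpo and Elane. All 8 were at 1 RPKM or more in both libraries, against 43.5% of all genes. Among 5 markers each of B and T cells, Ms4a1, Pax5, Cd3e and Cd4 were listed at 0 in both. Cd79b of the B cell list, however, was detected at 2.43 and 5.36 RPKM and was higher in replicate 2, and Cd3d of the T cell list had 0.70 and 0.89. Markers of more mature myeloid cells were higher in replicate 2. Those of mast cells summed to 39.7 RPKM in replicate 1 and 803 in replicate 2, those of macrophages to 1103 and 2970, and those of monocytes to 858 and 1581. Mature neutrophil markers summed to 9016 RPKM in replicate 1 and 12135 in replicate 2, above the 4811 and 3762 of the progenitor markers. Large parts of some sums came from single genes. Ngp of the neutrophil list stood at 6247 and 7796 RPKM, and Lyz2 of the macrophage list at 442 and 1853. Sums of different lists therefore do not compare cell numbers. All 6 neutrophil markers reached 1 RPKM in both libraries, as did all 4 basophil markers, beside the same 43.5% of all genes. The basophil markers summed to 1006 and 1985 RPKM. In bulk RNA, fewer cells of a type and less RNA per cell cannot be told apart. The labels do not say if the libraries are from separate animals or cultures, and the spread between them may be technical. No test was run, because with 2 libraries the smallest p that an exact sign-flip permutation test can give is 0.5. A difference within a library was called beyond the spread when it had the same sign in both and its mean exceeded 2 SD.

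Ccnd3 was by far the highest of the D cyclin genes, Ccnd2 was expressed at an intermediate level, and Ccnd1 was low. Ccnd3, which encodes cyclin D3, had 197 RPKM in replicate 1 and 183 in replicate 2, a mean of 190 ± 9.52 (SD, n = 2). It ranked at place 469 among all genes, and the libraries were close in it. Ccnd2, which encodes cyclin D2, stood at 14.4 and 19.7 RPKM, a mean of 17.1 ± 3.73 (SD, n = 2). Replicate 2 was the higher library for Ccnd2. Ccnd1, the gene of cyclin D1, had 0.765 RPKM in replicate 1 and 4.74 in replicate 2, a mean of 2.75 ± 2.81 (SD, n = 2). The SD of Ccnd1 was thus as large as its mean, and replicate 1 lay under 1 RPKM, the level used here for detection.

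**Figure D1:**
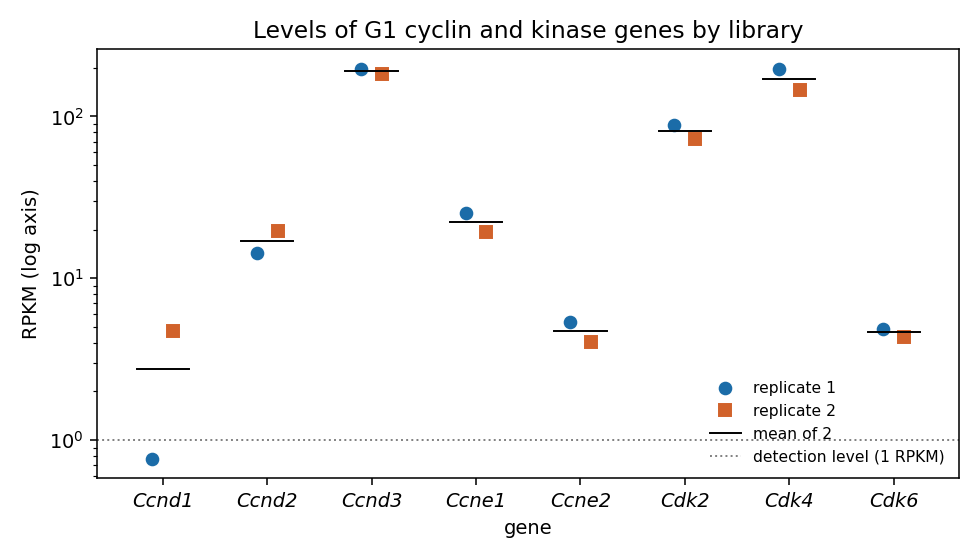
RPKM of each gene on a log axis in replicate 1 (circles) and replicate 2 (squares), with the mean of both (bar) and the detection level of 1 RPKM (dotted line). Ccnd3 and Cdk4 stand highest, and Ccnd1, at 0.765 and 4.74 RPKM, is the gene whose libraries lie farthest apart.

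Within the libraries, the order of the D cyclin genes was the same. In log2(RPKM + 1), Ccnd3 exceeded Ccnd2 by 3.42 ± 0.37 (SD, n = 2), and Ccnd2 exceeded Ccnd1 by 2.49 ± 0.90. These differences were beyond the spread. As a ratio of RPKM, Ccnd3 was 13.6 times Ccnd2 in replicate 1 and 9.30 times in replicate 2. Ccnd2 was 18.8 times Ccnd1 in replicate 1 and 4.15 times in replicate 2, so the size of that step differed strongly between the libraries. Of the summed D cyclin RPKM, Ccnd3 made up 92.8% in replicate 1 and 88.2% in replicate 2, Ccnd2 6.81% and 9.49%, and Ccnd1 0.362% and 2.28%. The sum itself was 212 RPKM in replicate 1 and 207 in replicate 2. Its log2 ratio between the libraries was -0.03, and 0.02 with the median gene set to 0, so that it has no settled direction.

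Ccne1 was the main E cyclin gene, and it stood in the same proportion to Ccne2 in both libraries. Ccne1, which encodes cyclin E1, had 25.3 RPKM in replicate 1 and 19.2 in replicate 2, a mean of 22.3 ± 4.28 (SD, n = 2). Ccne2, which encodes cyclin E2, stood at 5.35 and 4.06 RPKM, a mean of 4.70 ± 0.92 (SD, n = 2). Replicate 1 was the higher library for both genes. Ccne1 was 4.73 times Ccne2 in replicate 1 and 4.75 times in replicate 2, and on the log2(RPKM + 1) scale the difference was 2.03 ± 0.03 (SD, n = 2), beyond the spread. Of the 10 differences between members or their sums that were computed, this one had the smallest SD. Ccne1 made up 82.5% of the E cyclin sum in replicate 1 and 82.6% in replicate 2.

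Among the kinase genes, Cdk4 was highest, Cdk2 followed, and Cdk6 was low. Cdk4, the kinase of D cyclins in most cells, had 196 RPKM in replicate 1 and 146 in replicate 2, a mean of 171 ± 35.5 (SD, n = 2). Cdk2, the partner of E and A cyclins, stood at 88.6 and 72.9 RPKM, a mean of 80.7 ± 11.1 (SD, n = 2). Cdk6, the other kinase of D cyclins, known for a role in haematopoietic cells, stood at 4.89 and 4.36 RPKM, a mean of 4.63 ± 0.38 (SD, n = 2). All 3 kinase genes were lower in replicate 2, Cdk6 only slightly. In log2(RPKM + 1), Cdk4 exceeded Cdk6 by 4.92 ± 0.20 and Cdk2 by 1.07 ± 0.10 (SD, n = 2), and Cdk2 exceeded Cdk6 by 3.86 ± 0.10, all beyond the spread. Cdk4 was 40.1 times Cdk6 in replicate 1 and 33.5 times in replicate 2. It made up 97.6% and 97.1% of the sum of Cdk4 and Cdk6. The annotated transcripts of Cdk6 differ widely in length, from 376 to 11525 bp for 6 transcripts in GENCODE vM21 (GRCm38), and those of Cdk4 run from 468 to 2053 bp. Which length the deposited values were divided by is not known, and the low Cdk6 level, its ratio to Cdk4 and these shares depend on it.

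RefSeq promoter windows (GRCm38.p6) were found for 5 of the 8 genes, Ccnd3 (with 2 windows), Ccne1, Cdk2, Cdk4 and Cdk6. Within the 250 bases before the start, 6 spellings of the letters that E2F factors are known to prefer were searched on both strands, TTTCCCGC, TTTGGCGC, TTTCGCGC, TTTGCCGC, TTTGGCGG and TTTCCCGG. The letters CACGTG, the E-box that MYC and related factors bind, were searched too, a choice made after the windows were seen. The Cdk4 and Cdk2 windows are printed because these are the most highly expressed genes of the set whose windows hold such letters, in capitals.

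Cdk4, chr10:127063285-127063534, plus strand: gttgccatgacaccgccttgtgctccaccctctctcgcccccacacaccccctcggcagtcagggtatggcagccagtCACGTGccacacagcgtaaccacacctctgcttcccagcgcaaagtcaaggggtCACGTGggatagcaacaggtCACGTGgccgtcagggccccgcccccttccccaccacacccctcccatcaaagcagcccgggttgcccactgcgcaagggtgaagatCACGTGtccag

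Cdk2, chr10:128705052-128705301, minus strand: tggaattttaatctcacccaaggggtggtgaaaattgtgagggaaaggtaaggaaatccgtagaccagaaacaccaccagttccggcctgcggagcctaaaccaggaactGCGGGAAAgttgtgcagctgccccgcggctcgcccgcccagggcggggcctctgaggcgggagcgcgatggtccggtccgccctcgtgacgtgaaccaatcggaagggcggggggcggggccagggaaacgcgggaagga

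The Cdk4 window held CACGTG at 4 places, which began 172, 118, 98 and 11 bases before the start. Of 32817 windows of that length in the table, 6.02% held CACGTG and 7 windows held it at 4 or more places. The Cdk6 window held it once, 220 bases before the start. The Cdk2 window held 1 of the E2F spellings, GCGGGAAA, the reverse complement of TTTCCCGC, 140 bases before the start, and 3.22% of all windows held at least 1 of the spellings. No printed match overlapped another. The windows of Ccnd3 and Ccne1 held none of these letters, which says only that they are not in these windows.

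By mean RPKM, the order of the genes from high to low was Ccnd3, Cdk4, Cdk2, Ccne1, Ccnd2, Ccne2, Cdk6 and Ccnd1. Of the 7 neighbouring pairs in that order, 3 differed beyond the spread, Cdk4 over Cdk2, Cdk2 over Ccne1 by 1.82 ± 0.07 (SD, n = 2) and Ccnd2 over Ccne2 by 1.66 ± 0.53. The other 4 did not. Ccnd3 and Cdk4 differed by 0.16 ± 0.23, and were nearly equal in replicate 1. Ccne1 and Ccnd2 differed by 0.37 ± 0.57 and changed places in replicate 2. Ccne2 and Cdk6 differed by 0.01 ± 0.14, and Cdk6 and Ccnd1 by 0.82 ± 1.30, again with opposite signs in the libraries. In all, 7 of the 8 genes reached 1 RPKM in each library, Ccnd1 being the exception, against 43.5% of all genes.

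Summed over each family, D cyclin genes exceeded E cyclin genes, and Cdk2 exceeded the E cyclins. The D cyclin sum was 6.91 times the E cyclin sum of 30.7 RPKM in replicate 1 and 8.90 times that of 23.3 in replicate 2, a difference of 2.92 ± 0.25 (SD, n = 2) on the log2(RPKM + 1) scale. Cdk2 was 2.89 times the E cyclin sum in replicate 1 and 3.13 times in replicate 2, a difference of 1.55 ± 0.07. Both were beyond the spread. The sum of Cdk4 and Cdk6 was 201 RPKM in replicate 1 and 150 in replicate 2, or 0.95 and 0.725 times the D cyclin sum. That difference, -0.27 ± 0.27 (SD, n = 2), was within the spread.

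**Figure D2:**
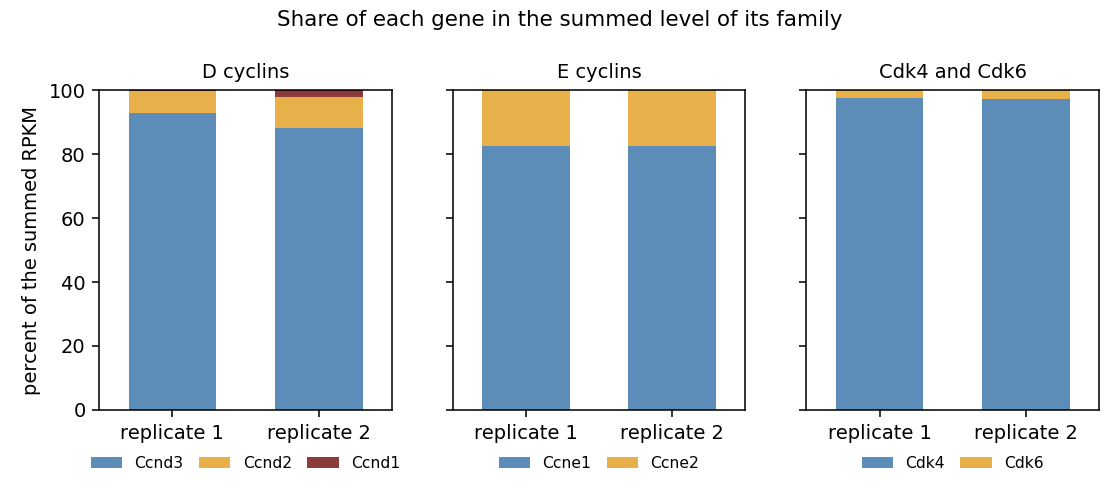
Percent of the summed RPKM of the D cyclins, of the E cyclins, and of Cdk4 with Cdk6 that each gene made up, in replicate 1 and replicate 2. Ccnd3 (92.8% and 88.2%), Ccne1 (82.5% and 82.6%) and Cdk4 (97.6% and 97.1%) fill most of each bar.

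Between the libraries, the D cyclin genes went in different directions, whereas the E cyclin and kinase genes were all lower in replicate 2, Cdk6 only slightly. Differences are log2 ratios of RPKM + 1, replicate 2 over replicate 1, which understate those of low genes. With 1 library on each side, they have no replicate check. Over the 10896 genes with a mean of 1 RPKM or more, the median log2 ratio was -0.05 with an SD of 0.55. The 8 genes had a median of -0.21, and 6 of them were lower in replicate 2, against 55.9% of all genes. Ccnd1 alone was past 2-fold, with a log2 ratio of 1.70, where 5.3% of all genes were at least 2-fold higher in replicate 2. None of the 8 was at least 2-fold lower, as 0.734% of all genes were. Ccnd2, at 0.42, was the other gene with a higher value in replicate 2. Cdk4 had the lowest ratio, -0.42, followed by Ccne1 at -0.38, Ccne2 at -0.33, Cdk2 at -0.28, Cdk6 at -0.14 and Ccnd3 at -0.10. Cdk6 and Ccnd3 lay near the median of all genes, as 40.0% and 44.1% of all genes had their ratio or a lower one. None of the 6 lower genes changed sign when the libraries were rescaled or the median gene was set to 0.

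**Figure D3:**
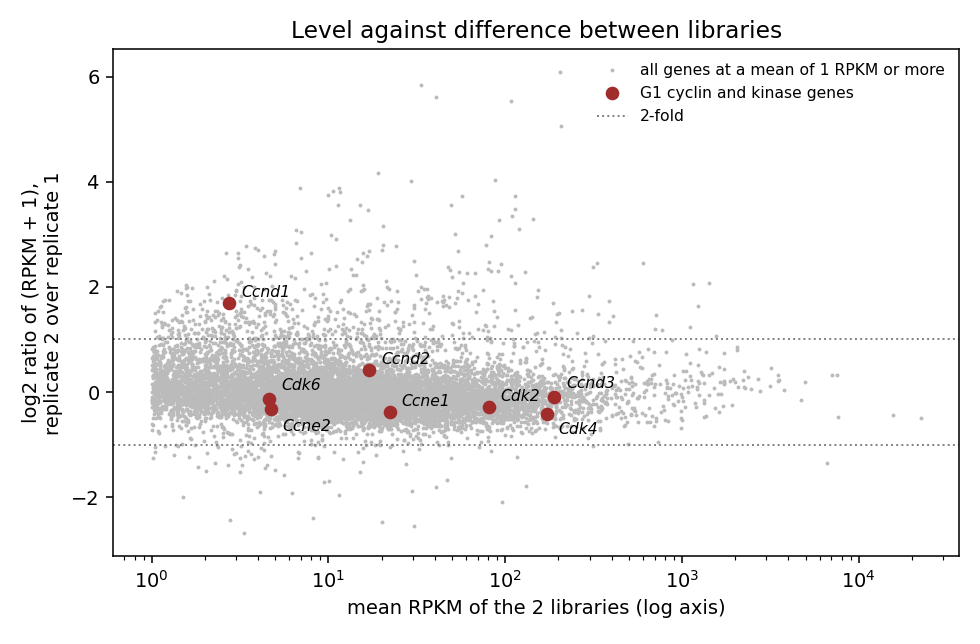
Log2 ratio of RPKM + 1, replicate 2 over replicate 1, against the mean RPKM (log axis) for all genes at a mean of 1 RPKM or more (grey) and the 8 genes (red). Dotted lines mark 2-fold. Ccnd1, at 1.70, lies above the upper line and the other genes lie between the lines, from -0.42 for Cdk4 to 0.42 for Ccnd2.

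The reads behind these values limit how firmly small ratios can be read. The smallest whole read numbers that give the deposited values of Ccnd1 were 87 in replicate 1 and 518 in replicate 2. Its RPKM was thus 6.19-fold higher in replicate 2, with an exact 95% interval of 4.93 to 7.86 from these read numbers. Reads without molecular identifiers are not independent molecules, so this interval covers counting error only. Ccnd2 had at least 623 and 818 reads and a fold of 1.37 (1.23 to 1.52). Cdk4 had at least 7911 and 5663 reads and a fold of 0.744 (0.719 to 0.770), and Ccne1 at least 741 and 542 with a fold of 0.761 (0.680 to 0.851). For Ccne2, with at least 129 and 94 reads, the fold of 0.758 had an interval of 0.575 to 0.996. For Cdk6, with at least 181 and 155, the fold of 0.890 had an interval of 0.714 to 1.11, so no difference was detectable at these numbers. The true read numbers may be whole multiples of these, which would narrow the intervals.

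Markers of other myeloid cells also differed between the libraries. The mast cell, macrophage and monocyte markers were counted at a mean of 1 RPKM or more. Of these, 6 of 6, 9 of 9 and 5 of 5 were higher in replicate 2, whereas 55.9% of all genes were lower. Ccnd1 and Ccnd2 were higher in replicate 2 too, but the other 6 of the 8 genes were lower. Below a mean of 1 RPKM stood Mrgprb1 (0.04 and 0.12 RPKM), Mcpt1 (0.06 and 0.92) and Tpsab1 (0.03 and 0.71) of the mast cell list. So did Cd163 of the macrophage list (0.10 and 0.13) and Cx3cr1 of the monocyte list (0.20 and 1.66). The myeloid progenitor markers summed to 4811 RPKM in replicate 1 and 3762 in replicate 2, most of it from Mpo, Elane and Prtn3. Of these 8 markers 5 were lower in replicate 2, against 55.9% of all genes, and Kit, Cd34 and Cebpa were higher, with log2 ratios of 0.29, 0.40 and 0.11. The part of these cells in the cyclin and kinase values was not tested.

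Genes that act with the cyclins and kinases were taken from 8 lists of 90 genes in all. E2F target genes of G1/S, which are switched on when the retinoblastoma protein is phosphorylated, were all detected, against 43.5% of all genes. All 20 were lower in replicate 2, against 55.9% of all genes, with log2 ratios from -0.64 to -0.22 and a median of -0.51. Rrm2, a subunit of ribonucleotide reductase, stood at 409 and 277 RPKM and Mcm3, a part of the replicative helicase, at 117 and 76.7. The ratios of Ccne1, Ccne2, Cdk2 and Cdk4 lay inside the range of these 20 genes, and those of Ccnd1, Ccnd2, Ccnd3 and Cdk6 above it. Such ratios were common, as 23.9% of all genes had the ratio of Cdk2 or a lower one, and 11.5% that of Cdk4. The share of all genes inside the range was not computed, so a place inside it cannot be read as a likeness to the E2F targets. All 5 genes of S and M phase cyclins and their kinase at a mean of 1 RPKM or more were also lower, with a median of -0.30. Cdk1 stood at 98.3 and 85.1 RPKM and the cyclin gene Ccnb2 at 85.2 and 73.1, whereas Ccna1, the cyclin A gene of germ cells, was listed at 0 and at 0.04 RPKM.

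The retinoblastoma and E2F genes were all detected, 13 of 13, against 43.5% of all genes. Of these 13, 9 were lower in replicate 2, against 55.9% of all genes, with a median log2 ratio of -0.26. Tfdp1, a DNA-binding partner of E2F factors, was highest at 153 and 108 RPKM, and E2f1 stood at 103 and 82.0. Of the genes that switch the kinases on or hold them back, 7 of 8 were lower, beside the same 55.9%, with a median of -0.30. These include Cdc25a, the phosphatase that activates CDK2, at 36.0 and 27.0 RPKM and Ccnh, the cyclin of the CDK-activating kinase, at 28.3 and 23.1. Cdc25b, at 15.0 and 19.8 RPKM, was the exception. The list pools genes of opposite action, so the count gives no direction of kinase activity. Of the 12 genes for the turnover of cyclins and inhibitors 8 were lower, with a median of -0.06, near the 55.9% and -0.05 of all genes. Cks1b, at 96.0 and 78.3 RPKM, and Cks2, at 83.4 and 63.2, were highest. Skp2, the ubiquitin ligase subunit that with CKS1 marks the inhibitor p27 for destruction, stood at 12.95 and 5.82 RPKM, a log2 ratio of -1.03. It was the gene of these 12 past 2-fold, where 0.734% of all genes were at least 2-fold lower.

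Most of the inhibitor genes were higher in replicate 2. Of the 6 at a mean of 1 RPKM or more, 5 were higher, with a median log2 ratio of 0.63, whereas 55.9% of all genes were lower. Cdkn2c, at 15.6 and 15.0 RPKM, was the exception. Cdkn1a, which encodes the CDK inhibitor p21, stood at 52.0 and 105 RPKM and Cdkn1b, which encodes p27, at 29.0 and 38.3. Cdkn2b, an inhibitor of CDK4 and CDK6, stood at 1.17 and 3.76 RPKM. It was the gene of the list past 2-fold on the log2(RPKM + 1) scale, where 5.3% of all genes were at least 2-fold higher. Cdkn1c, at 0.15 and 0.25 RPKM, was not detected. Of the 9 genes named as inputs to D cyclin transcription 6 were higher, with a median of 0.27, whereas 55.9% of all genes were lower. Foxo1, at 0.72, and Foxo3, at 0.61, had the highest log2 ratios of the list. The list pools genes of different action, so the count does not give a direction of input to the D cyclins. Mapk3, an ERK kinase, stood at 185 and 216 RPKM and Myc at 75.8 and 91.5, whereas Foxo1, a factor that AKT holds out of the nucleus, stood at 0.99 and 2.28. Of the 15 other cyclins and cyclin-dependent kinases, 14 were detected, against 43.5% of all genes. Of these 14, 7 were higher and 7 lower in replicate 2, where 55.9% of all genes were lower, with a median of -0.02. The highest were Ccni at 103 and 129 RPKM and Cdk9, the kinase of transcription elongation, at 51.5 and 51.6, and Cdk14, at 0.71 and 0.59, was not detected. No list is independent evidence, because the lists were drawn up with earlier results of these data known.

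**Figure D4:**
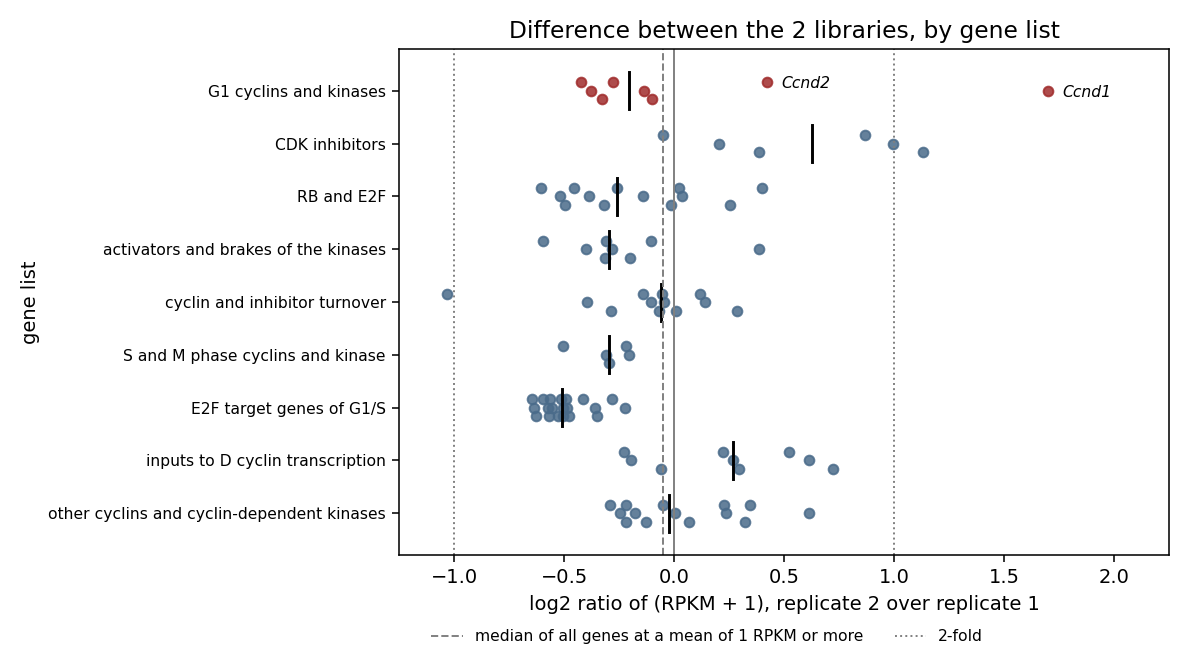
Log2 ratio of RPKM + 1, replicate 2 over replicate 1, for each gene at a mean of 1 RPKM or more (points) and the median of each list (bars), with the median of all genes (dashed line) and 2-fold (dotted lines). All 20 E2F target genes lie left of 0 and 5 of 6 CDK inhibitor genes right of it, and of the 8 cyclin and kinase genes only Ccnd1 and Ccnd2 lie right of 0.

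For each member, the gene of these lists with the nearest pair of log2(RPKM + 1) values was found by Euclidean distance, a likeness over only 2 libraries. Ccne1 lay nearest to Tk1 (thymidine kinase), at 24.9 and 19.3 RPKM and a distance of 0.02. Ccnd2 lay nearest to Cdc25b, at 15.0 and 19.8 RPKM and a distance of 0.05. Cdk2 lay nearest to Ccnb2 (0.06), Cdk6 to Usp28 (0.06), Ccne2 also to Usp28 (0.18) and Ccnd3 to Mapk3 (0.25). Ccnd1 lay nearest to Cdkn2b at a distance of 0.40, and Cdk4 to Tfdp1 at 0.56, so these had no close match in the lists.

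Several members overlap another gene in RefSeq annotation (GRCm38.p6), and the strand setting of the counting is not given, so reads in shared parts cannot be told apart. Tspan31, which overlaps Cdk4, stood at 166 and 176 RPKM, a level close to that of Cdk4 but without its lower value in replicate 2. Oraov1 (LTO1), which overlaps Ccnd1, stood at 6.46 and 6.61 RPKM, above Ccnd1 in both libraries. Bysl overlaps Ccnd3 and stood at 27.4 and 16.4 RPKM, and Ints8 overlaps Ccne2 and stood at 11.9 and 9.60. Pmel, which overlaps Cdk2, was low at 0.43 and 0.89.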

How the data were processed

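RNA was measured by RNA-seq in 2 libraries. The authors deposited RPKM values with 1 column per library. Per the submitters' processing notes, Trimmomatic 0.32, TopHat2, HTSeq and edgeR were used with build mm9. The sources used here do not give their roles and settings, the annotation, the strand setting or the gene lengths. Columns were matched to replicates by their names. Rows with date-like names (27 of 24015, 0.109% of the summed RPKM) were left out, which left 23988 genes.

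Log2 values use a pseudocount of 1, and log2 ratios were summarised over genes with a mean of 1 RPKM or more. The relative effective library size was the ratio shared by 466 low genes (tolerance 1e-05). Read numbers are the smallest whole pair that fits the RPKM ratio (relative tolerance 5e-09), with 95% Clopper-Pearson intervals. The calculations, in Python 3.11.15 with pandas 2.3.3, numpy 2.4.6 and scipy 1.17.1, were tested on simulated data. Named genes were the 8 members and, per list, the 2 highest, those most different between the libraries past 2-fold and those not detected, plus the nearest gene of each member. Members and lists were chosen with earlier results of these data known. Alternatives were other pseudocounts, filters, detection levels and scalings, and leaving out each library.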

Additional observations from a re-analysis of the deposited data

How the results depend on the processing

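The 9 differences between members that were beyond the spread stayed so with other pseudocounts and with rescaled libraries, and neither they nor the log2 ratio of Ccnd1 changed sign under any alternative run. Leaving out 1 of 2 libraries only returns the value of the other and is no check of stability: the mean of Ccnd1, 2.75 RPKM, became 4.74 without replicate 1 and 0.765 without replicate 2, and its mean share of the D cyclin sum, 1.32%, became 2.28% and 0.362%. With a pseudocount of 0.1 and with none, Ccne1 minus Ccne2 was 2.22 and 2.24 (2.10 with libraries rescaled to a sum of 1000000), Cdk4 minus Cdk6 5.17 and 5.20, Cdk2 minus Cdk6 4.09 and 4.12, and the log2 ratio of Ccnd1 between libraries 2.48 and 2.63. Leaving out each library moved 0 to 4 genes to another place in the order, the 4 without replicate 1 being Ccnd2, Ccne1, Ccne2 and Ccnd1. With no filter, 2.53% of genes were at least 2-fold higher and 0.388% at least 2-fold lower in replicate 2, and with a pseudocount of 0.1 1.20% were lower. At a detection level of 5 RPKM 5 of the 8 genes were detected, and at 0.5 RPKM all 8. The share of all genes at these levels was not computed, so these counts have no background. The rescaling also multiplied the mean level of every gene, for example to 309 for Ccnd3 and 7.53 for Cdk6. No paired analysis was possible because there is 1 group. With 2 libraries and gene lengths not given, small differences between genes and between libraries cannot be judged.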

Other observations

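Kinase and inhibitor transcripts were set against each other in each library, a comparison chosen after the values were seen. It sets 1 library beside 1, with no replicate check. Markers of mast cells (39.7 and 803 RPKM), macrophages (1103 and 2970), monocytes (858 and 1581) and mature neutrophils (9016 and 12135) were also higher in replicate 2, and their part in these values was not tested. The 4 inhibitor genes of the INK4 family summed to 27.1 RPKM in replicate 1 and 37.9 in replicate 2. The sum of Cdk4 and Cdk6 was 7.41 times that level in replicate 1 and 3.98 times in replicate 2, a mean log2 ratio of 2.44 ± 0.64 (SD, n = 2). The D cyclin sum was 7.80 and 5.48 times the INK4 sum. Most of the difference in the INK4 sum came from Cdkn2a, at 9.08 and 17.4 RPKM, which encodes ARF, a protein that does not bind CDK4 or CDK6, as well as the inhibitor p16, and gene-level RPKM cannot separate their transcripts. Without Cdkn2a the INK4 sum was 18.1 and 20.4 RPKM, the sum of Cdk4 and Cdk6 was 11.1 and 7.37 times it, and the D cyclin sum 11.7 and 10.2 times it. The 3 genes of the CIP and KIP family, Cdkn1a, Cdkn1b and Cdkn1c, summed to 81.2 and 143 RPKM. Cdk2 was 1.09 times that sum in replicate 1 and 0.508 times in replicate 2, so that the direction of this comparison was opposite in the libraries.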
